A study of Rattus norvegicus with 8 samples.

Results

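Microglia, cytokine and antigen presentation genes form a set of 38 genes: markers of microglia, genes of phagocytosis and complement, class II antigen presentation genes, cytokines and chemokines, pattern receptors, and inflammatory signalling genes. The members were chosen by name, with no measured value in the rule. On the array 37 of the 38 were found under their own symbol, and the 1 remaining, Spi1, was found under an older symbol that the RefSeq table pairs with it, out of 19308 named genes in all. The RNA came from hippocampi of male Sprague Dawley rats aged 3 months. The Y+I group held 4 animals given yohimbine and imipramine together for 7 days, and the vehicle group held 4 animals given vehicle for 7 days, with tissue taken 2 hours after treatment. Yohimbine blocks alpha-adrenoceptors of the inhibitory presynaptic type, and imipramine is a tricyclic antidepressant that blocks the reuptake of noradrenaline and serotonin. No animals given a single drug were analysed here, so the comparison does not separate the drugs, and the sources used here do not name the vehicle. RNA from each animal was read on a separate 1-colour Agilent array, so that n = 4 in each group.

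Microglia are the resident macrophages of the brain. They survey the tissue with receptors for nucleotides and fractalkine, clear debris through lysosomes and the C1q component of complement, and depend on signalling through the receptor Csf1r. When Toll-like receptors and their co-receptor Cd14 meet bacterial or damage-derived ligands, NF-kappaB and STAT factors switch on cytokine and chemokine genes, and Socs3 and other inhibitors limit that response. Class II molecules, which present peptides to helper T cells, are held by the invariant chain Cd74 until they reach the compartment where they are loaded. The hippocampus is bulk tissue here, so fewer cells of a type and less RNA per cell cannot be told apart.

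A level below is the log2 processed signal of a probe minus the 75th percentile of its array, a difference is the Y+I mean minus the vehicle mean on that scale, and a gene is said to have changed where limma gave an adjusted p under 0.05 over all 18803 features tested. Well above background is the scanner software's own call for a spot. Between 64.4% and 74.8% of spots were well above background on the Y+I arrays and between 76.4% and 79.7% on the vehicle arrays, and the 75th percentile lay between 1045 and 1971 scanner units in Y+I and between 1939 and 2106 in vehicle. All arrays shared 1 slide, with Y+I on row 2 and vehicle on row 1, and the row and the treatment cannot be told apart.

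The members were read by 46 probes of 60 bases, and 8 members had 2 probes each. The probes below are shown because the results turn on what they read, and they are given as in the deposited files, on rat build rn4. For Itgam the pair shares a run of 34 bases, set in capitals, and differs in the rest. Its brighter probe lies at chr1:187385524-187385583 on the plus strand. Its dimmer probe spans chr1:187385032-187385565, a stretch of 534 bases for an oligo of 60, and so crosses an exon junction. The 2 probes of Fcgr2b, at chr13:86809091-86809150 and chr13:86815061-86815120 on the minus strand, share no run of over 7 bases. Cd14, at chr18:29374990-29375049 on the minus strand, and Tlr2, at chr2:175608160-175608217 on the minus strand, are the tested members whose groups did not overlap. Il6, spanning chr4:457279-458563 on the minus strand, is shown because its probe was well above background on no array. Whether a probe lies in coding or untranslated sequence is not given in these sources.
Itgam, brighter probe: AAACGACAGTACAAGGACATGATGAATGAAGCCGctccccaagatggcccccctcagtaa
Itgam, dimmer probe: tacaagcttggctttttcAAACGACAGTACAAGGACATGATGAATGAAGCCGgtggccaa
Fcgr2b, probe used: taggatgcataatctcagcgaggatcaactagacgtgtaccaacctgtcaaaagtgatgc
Fcgr2b, other probe: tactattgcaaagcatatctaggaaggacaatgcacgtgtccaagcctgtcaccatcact
Cd14: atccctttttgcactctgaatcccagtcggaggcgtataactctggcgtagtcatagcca
Tlr2: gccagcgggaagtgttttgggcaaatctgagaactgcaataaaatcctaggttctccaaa
Il6: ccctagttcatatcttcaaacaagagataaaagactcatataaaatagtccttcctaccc

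No member of the set passed the test between Y+I and vehicle hippocampi. Of the 38 members, 34 passed the filter on background and were tested, and 0 of the 34 had an adjusted p under 0.05 in limma, beside 2.33% of all features tested. The smallest adjusted p was 0.107, for the lipopolysaccharide co-receptor Cd14. With no adjustment 8 of the 34 (23.5%) had p under 0.05, namely Cd14 and Il1b with a higher mean in Y+I and Tlr2, Fcgr2b, P2ry13, P2ry12, Tgfb1 and Csf1r with a lower one, beside 15.6% of all features. The groups did not overlap for 2 of the 34 tested members, Cd14 and Tlr2 (5.88%), beside 11.7% of all features.

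The median difference over the 34 tested members was -0.11, with 12 above 0 and 22 below, and the median over all features was -0.02. This balance turned with the background correction: under normexp, which models the local background of each spot, the members' median was 0.11, with 22 above 0 and 12 below, and that of all features was 0.09. Under normexp 1 member, Cd14, passed, beside 3.2% of all features. To be kept, a probe had to be well above background on the 4 arrays of at least 1 group, and 9 of the 34 members entered through vehicle, since 1 or more Y+I arrays read them nearer to background. They were P2ry13, Spi1, Il1a, Il1b, Ccl3, Cxcl10, Tgfb1, Tlr4 and Socs3. Among them P2ry13 and Tgfb1, counted above as lower with no adjustment, took the other sign under normexp (0.24 and 0.16). Il1b, counted as higher, was 0.51 there. The other 25 were well above background on all 8 arrays.

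The precision of these comparisons was moderate. The 95% interval of limma lay within 2-fold in either direction for 28 of the 34 members and within 1.5-fold for 15, with a median width to either side of 0.40 log2 units. The median SD between animals over the tested members was 0.320 in Y+I and 0.148 in vehicle, beside 0.239 in Y+I and 0.134 in vehicle over all features. The Y+I animals thus spread more than the vehicle animals, in the members as in the array as a whole.

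**Figure D1:**
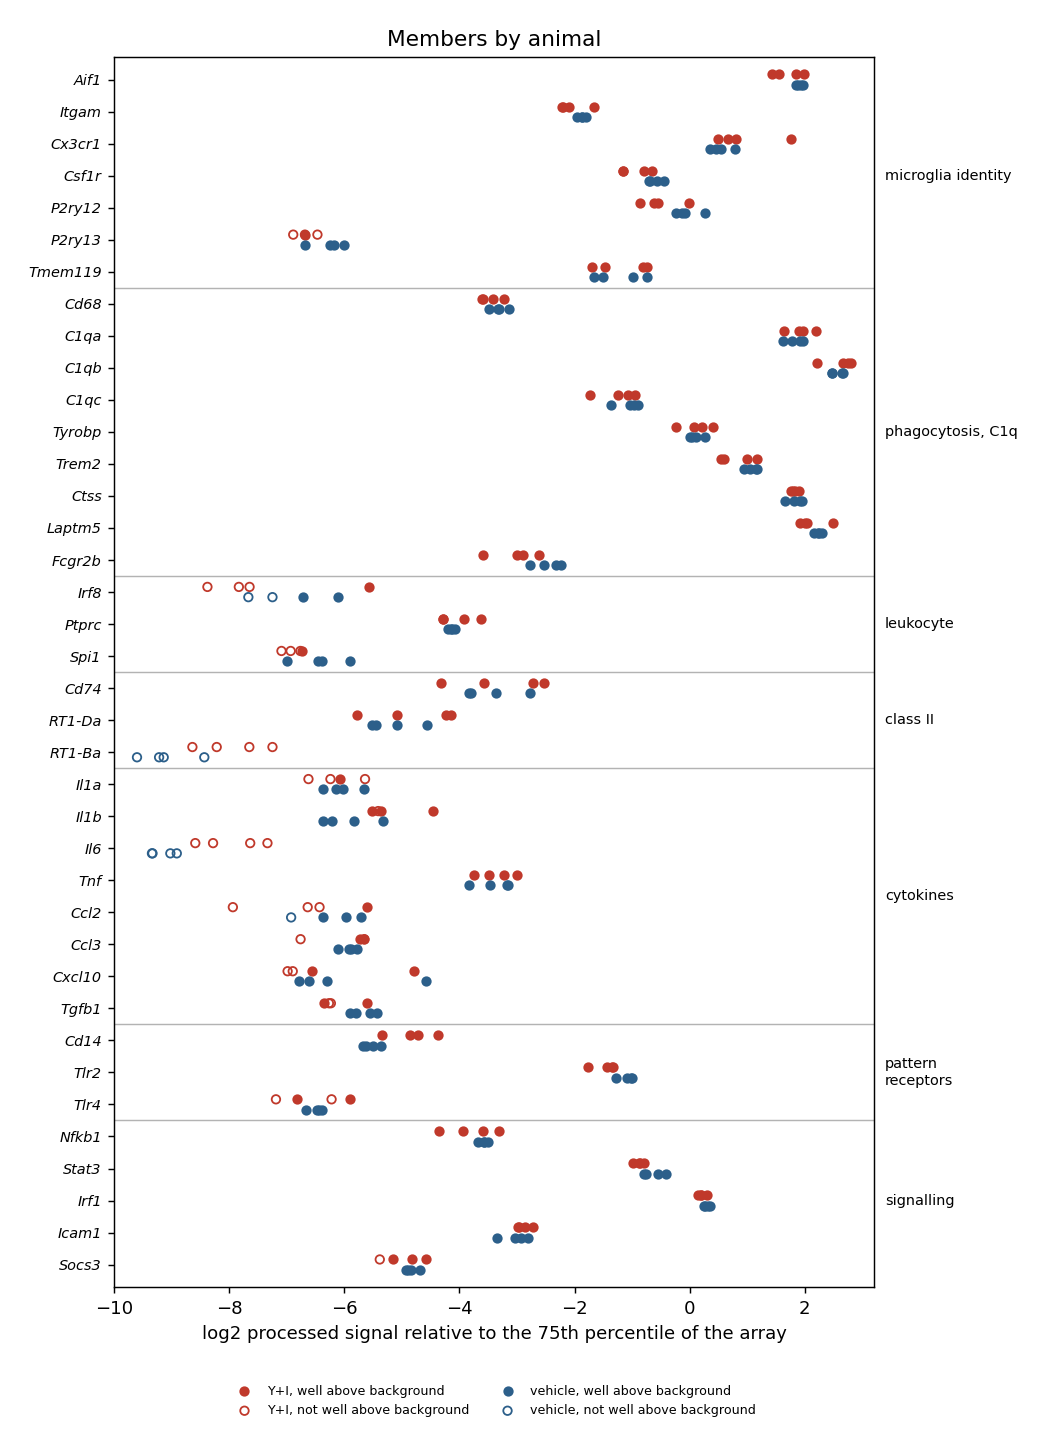
Level of each of the 38 members in each animal, as log2 processed signal relative to the 75th percentile of the array (x axis), with Y+I animals above vehicle animals on each line and open circles where the probe was not well above background. The groups overlap on every line but those of Cd14, Tlr2 and Il6, and Il6 has only open circles.

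Among the 7 members that mark microglia, Csf1r and P2ry12 had lower means in Y+I at limma p values under 0.05 without adjustment. So did P2ry13, but its probe was kept through vehicle alone and its difference took the other sign under normexp. Cx3cr1 had a higher mean that rested on 1 animal, and Tmem119 varied widely between animals of both groups. All 7 were tested and 0 passed, with 2 differences above 0, 5 below and a median of -0.21 (normexp -0.15). P2ry12 encodes the ADP receptor by which surveying microglia steer their processes. Its level was -0.85, -0.01, -0.61 and -0.54 in Y+I animals 1 to 4, against -0.23, 0.28, -0.09 and -0.12 in vehicle animals 1 to 4. Animal 2 was the highest of its group in both, and the Y+I value of animal 2 lay within the range of vehicle. The difference was -0.46 ± 0.19 (SE), 0.725-fold, with a limman adjusted p of 0.275.

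Csf1r, the receptor for colony-stimulating factor on which microglia depend for survival, read -0.65, -1.16, -0.79 and -1.15 in Y+I animals, against -0.68, -0.57, -0.71 and -0.45 in vehicle animals. Y+I animals 2 and 4 lay below every vehicle animal, and Y+I animals 1 and 3 lay close to them. The difference was -0.34 ± 0.14 with an adjusted p of 0.288 in limma, and the second probe of Csf1r gave -0.20 with overlapping groups. P2ry13, another ADP receptor, averaged -6.68 ± 0.17 in Y+I and -6.28 ± 0.29 in vehicle (SD, n = 4 each), but its probe was well above background on only 1 of the 4 Y+I arrays. Its difference of -0.40 had the other sign under normexp, at 0.24.

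Cx3cr1 is the fractalkine receptor through which neurons signal to microglia. It read 0.67, 0.49, 0.81 and 1.77 in Y+I animals, against 0.36, 0.55, 0.47 and 0.79 in vehicle animals. Y+I animal 4 stood far above the rest and the other 3 lay in or just above the vehicle range. The difference was 0.39 ± 0.26 (limman adjusted p = 0.521) over all animals and 0.11 without Y+I animal 4. Aif1, the calcium-binding protein also called Iba1, averaged 1.71 ± 0.25 in Y+I and 1.92 ± 0.06 in vehicle, a difference of -0.21 that was -0.03 by its second probe and -0.12 without Y+I animal 3.

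Tmem119, a membrane protein used to tell microglia from other macrophages, had nearly the same mean in both groups and a large spread. Its level was -0.74, -1.70, -0.81 and -1.46 in Y+I animals, against -1.67, -1.50, -0.98 and -0.74 in vehicle animals. High and low animals stood in both groups, so that the ranges covered each other. The difference was 0.04 ± 0.28, with a 95% interval of -0.58 to 0.67. Each array carried 10 spots of this probe, whose SD within an array had a median of 0.066, beside an SD between animals of 0.478 in Y+I and 0.435 in vehicle, which also holds labelling and hybridisation. A second probe, which shares no run of over 6 bases with the first, followed it over the 8 animals with r = 0.981, as a description.

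Itgam, the alpha chain of the complement receptor on microglia, read -2.22, -2.09, -2.20 and -1.66 in Y+I animals, against -1.86, -1.80, -1.86 and -1.96 in vehicle animals with its brighter probe. By that probe the groups overlapped through Y+I animal 4, and the difference was -0.17 (limman adjusted p = 0.599). The dimmer probe, whose other bases lie on both sides of the shared run, read -4.85, -4.65, -4.36 and -4.46 in Y+I animals, against -3.84, -3.73, -3.79 and -4.07 in vehicle animals. By that probe every Y+I animal lay below every vehicle animal, with a difference of -0.72 and no test of its own, since the brighter probe stood for the gene. With the mean of both probes the difference was -0.45 (adjusted p = 0.110).

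**Figure D2:**
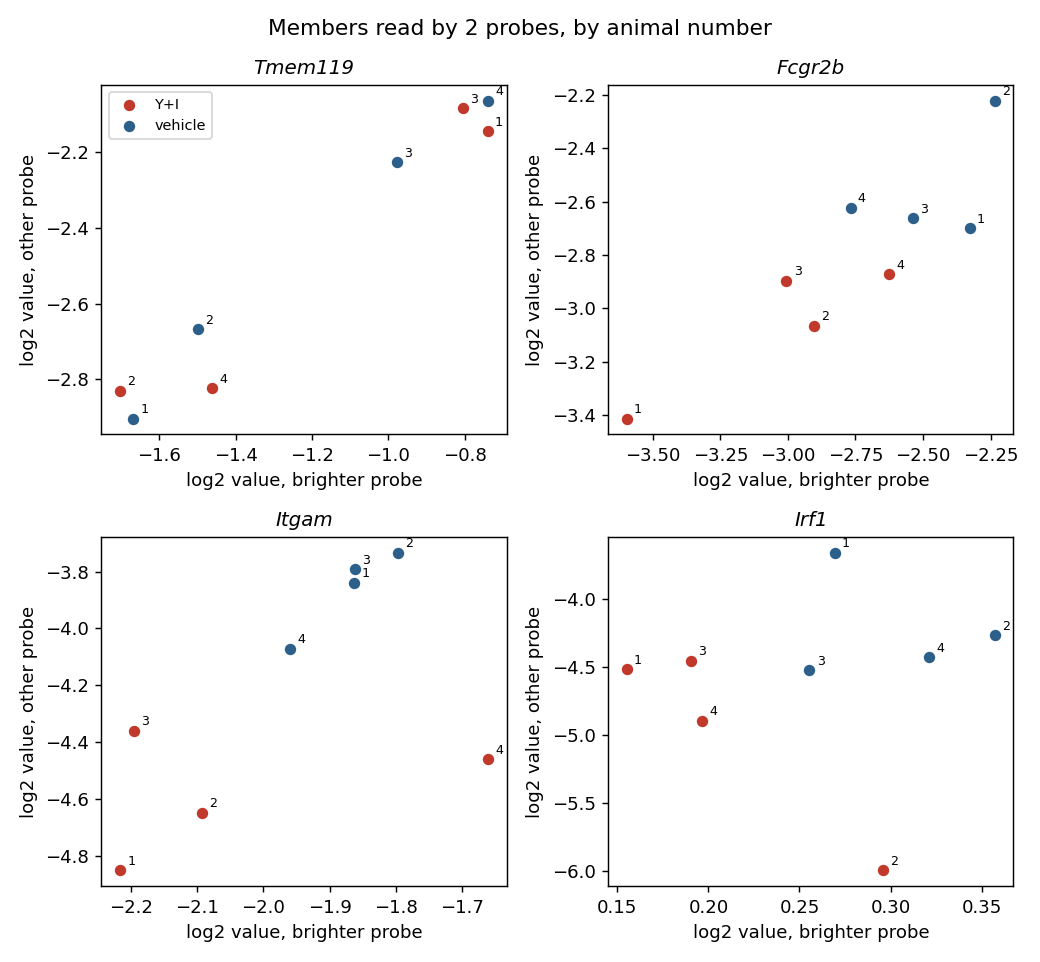
Levels of 4 members by each of their 2 probes, brighter probe on the x axis and other probe on the y axis, both as log2 processed signal relative to the 75th percentile of the array, with points numbered by animal. The 2 probes of Tmem119 and of Fcgr2b followed each other over the 8 animals with r = 0.981 and r = 0.89, those of Itgam with r = 0.579 and those of Irf1 with r = 0.005.

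The 9 members of phagocytosis, lysosome and C1q were all well above background on all arrays, and 0 passed, with 3 differences above 0, 6 below and a median of -0.12 (normexp -0.01). The chains of C1q, which open the classical complement pathway and tag synapses and debris, gave differences of 0.10 for C1qa, 0.05 for C1qb and -0.18 for C1qc. C1qb averaged 2.61 ± 0.28 in Y+I and 2.56 ± 0.10 in vehicle. The 95% interval for C1qb was -0.27 to 0.38, within 1.5-fold in either direction.

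Ctss, the cathepsin that trims the invariant chain, gave the narrowest interval of these 9. It read 1.80, 1.76, 1.84 and 1.90 in Y+I animals, against 1.65, 1.96, 1.91 and 1.82 in vehicle animals, and the Y+I values lay inside the vehicle range. The difference was -0.01 ± 0.10, with a 95% interval of -0.23 to 0.21. Tyrobp, the adaptor that carries the signal of Trem2, differed by 0.01, the lysosomal glycoprotein Cd68 by -0.14 and the lysosomal membrane protein Laptm5 by -0.12. Trem2, the lipid-sensing receptor itself, averaged 0.83 ± 0.31 in Y+I and 1.08 ± 0.10 in vehicle, a difference of -0.25 that was -0.16 without Y+I animal 3.

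Fcgr2b, the inhibitory receptor for IgG, had the largest negative difference of all tested members. By the probe with 10 spots it read -3.60, -2.90, -3.01 and -2.63 in Y+I animals, against -2.33, -2.23, -2.54 and -2.77 in vehicle animals. Y+I animals 1 to 3 lay below every vehicle animal and Y+I animal 4 lay within the vehicle range. The difference was -0.57 ± 0.21 (limman adjusted p = 0.228), 0.676-fold, and -0.35 under normexp. The other probe of Fcgr2b, which reads a separate stretch of the gene, gave -0.51, and by it every Y+I animal lay below every vehicle animal.

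Of the 3 members that define leukocytes, Ptprc and Spi1 were tested and Irf8 was not. Ptprc, the phosphatase on all nucleated blood cells, averaged -4.03 ± 0.32 in Y+I and -4.14 ± 0.05 in vehicle, a difference of 0.11. Its second probe was well above background on no array. Spi1, the factor PU.1 that directs the myeloid lineage, was well above background on 1 of 4 Y+I arrays and 4 of 4 vehicle arrays. Its difference was -0.44 and turned to 0.19 under normexp. Irf8, which acts with Spi1 in microglia, was well above background on 1 Y+I array and 2 vehicle arrays.

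The class II member RT1-Da and the invariant chain Cd74 did not differ in mean beyond the spread of the animals, but their levels followed each other from animal to animal. Cd74 read -4.32, -2.52, -3.57 and -2.71 in Y+I animals, against -3.37, -2.77, -3.84 and -3.80 in vehicle animals. RT1-Da, the alpha chain of the rat class II molecule that corresponds to human DR, read -5.78, -4.14, -5.09 and -4.24 in Y+I animals, against -5.09, -4.56, -5.53 and -5.45 in vehicle animals. In both genes Y+I animal 2 was the highest of the 8 and Y+I animal 1 the lowest, and vehicle animal 2 was the highest vehicle animal. The difference was 0.16 ± 0.40 for Cd74 (limman adjusted p = 0.891) and 0.34 ± 0.37 for RT1-Da (adjusted p = 0.718). Both signs depended on single animals or weights: without Y+I animal 2 the difference of Cd74 was -0.09 and that of RT1-Da 0.12, and with array weights they were -0.29 and -0.08. RT1-Ba, the alpha chain that corresponds to human DQ, was well above background on no array of either group.

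Over the 561 pairs of tested members, Cd74 and RT1-Da were the only pair whose levels over the 8 animals correlated after adjustment. Pearson's r was 0.985 (exact permutation p = 2.48e-05, the smallest that the permutations can give, adjusted p = 0.0139) and Spearman's rho was 1 (exact permutation p = 4.96e-05, adjusted p = 0.0278). Without the 2 animals farthest from the median of Cd74, r was 0.977. Within the groups r was 0.999 over the 4 Y+I animals and 0.999 over the 4 vehicle animals. The pair was singled out after its values were seen, and both genes were read on the same arrays. The next pair, P2ry12 with the transcription factor Irf1, had r = 0.957 and an adjusted p of 0.174 (exact permutation).

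For the other genes of antigen presentation no such correlation passed. Of 17 tested, 0 had an adjusted p under 0.05 for their correlation with Cd74 in the exact permutation test. The nearest were the transporter subunits Tap2 (r = 0.819) and Tap1 (r = -0.713) and the thiol reductase Ifi30 (r = 0.839), each with an adjusted p of 0.127. Tap1 thus went the other way from Cd74. The class II beta chains RT1-Db1 and RT1-Bb had r = 0.546 and r = 0.012, and beta-2-microglobulin, the light chain of class I, had r = 0.618. RT1-Db1, the partner chain of RT1-Da, averaged -2.56 ± 0.21 in Y+I and -2.61 ± 0.17 in vehicle.

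**Figure D3:**
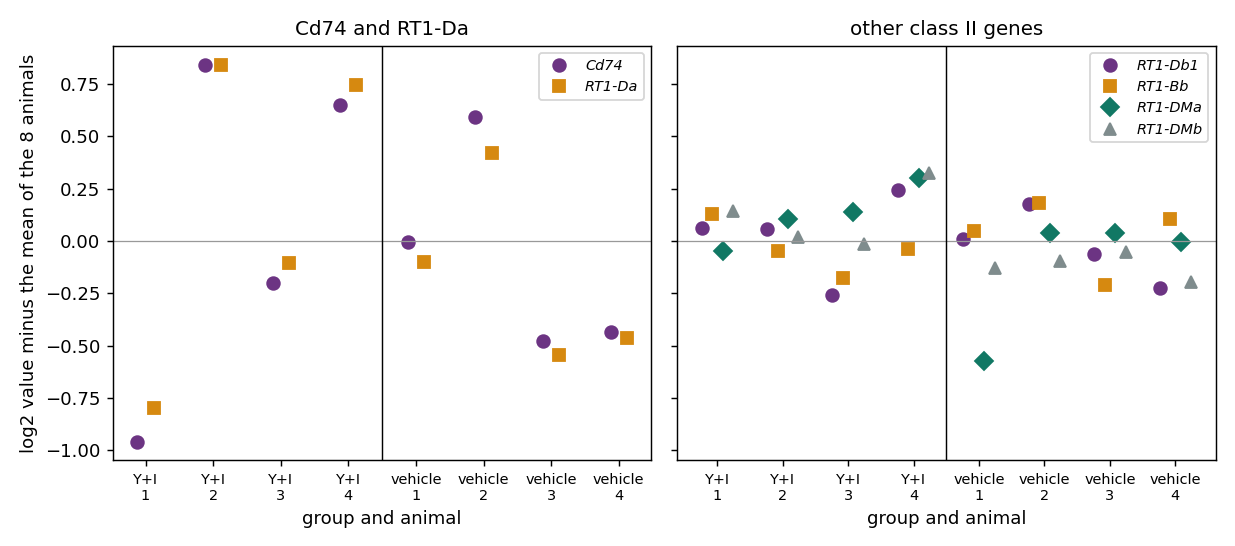
Level of class II genes in each animal minus the mean of the gene over the 8 animals, in log2 units (y axis), with Y+I animals left of vehicle animals on the x axis; Cd74 and RT1-Da stand in the left panel and the class II genes RT1-Db1, RT1-Bb, RT1-DMa and RT1-DMb in the right. Cd74 and RT1-Da move together in all 8 animals (r = 0.985), and the genes of the right panel span a narrower range.

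The 250 bases before the start sites of Cd74 and RT1-Da are shown because these members moved together, as RefSeq gives them on rat build GRCr8, both on the plus strand, at chr18:56526956-56527205 and chr20:4515165-4515414. Capitals mark matches, on either strand, to the letters of NF-kappaB sites (GGG and TTCC with any 3 bases between), to CTGATTGG of the class II Y box and to CTAGNAAC of the core of the class II X box. TTCNNNGAA of STAT sites and GAGGAAGT of PU.1 sites were searched too and have no match in these stretches. The X box letters were chosen after these sequences had been seen. Such boxes lie upstream of class II genes as a module, and a match is a description of letters only.
Cd74: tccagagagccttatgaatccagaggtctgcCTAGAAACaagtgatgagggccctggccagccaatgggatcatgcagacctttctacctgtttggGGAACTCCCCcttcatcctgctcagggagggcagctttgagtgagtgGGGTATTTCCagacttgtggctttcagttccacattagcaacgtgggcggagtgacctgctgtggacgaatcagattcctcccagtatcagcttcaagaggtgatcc
RT1-Da: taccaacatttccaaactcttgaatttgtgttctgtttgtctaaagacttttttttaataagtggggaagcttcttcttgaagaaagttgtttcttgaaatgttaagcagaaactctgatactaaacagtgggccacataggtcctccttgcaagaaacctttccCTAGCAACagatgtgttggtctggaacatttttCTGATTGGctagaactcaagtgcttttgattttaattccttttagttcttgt

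The X box letters began 219 bases before the start of Cd74 and 85 bases before that of RT1-Da, and the Y box letters began 52 bases before the start of RT1-Da. Over windows from 250 bases before to 50 after the start, RefSeq held 29 of the 38 members among 27457 promoters. The X box letters were in 2 of the 29 (6.9%), Cd74 and RT1-Da, and in 3.5% of all. Those letters were chosen after these 2 sequences had been seen, so the 2 shares cannot be compared. The Y box letters were in 5 (17.2%) and in 3.55% of all, RT1-Da, RT1-Ba, Irf8, Cd68 and Il6 among the members. NF-kappaB letters were in 6 (20.7%) and in 5.36% of all, the members being Tlr2, Nfkb1, Il6, C1qb, Cxcl10 and Cd74. STAT letters were in 5 (17.2%) and in 8.68% of all, and the PU.1 letters in 1, Ctss (3.4%), and in 2.44% of all.

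Cytokine and chemokine messages were near the limit of the array. Of the 8 members of this kind, 6 were tested and 0 passed, and only Tnf was well above background on all 8 arrays. The other 7, by the probe that stood for each, were well above background on fewer Y+I than vehicle spots. Il1a, Ccl3 and Tgfb1 were so on 13, 20 and 16 of 40 Y+I spots, against 40 of 40 vehicle spots each. Il1b was so on 31 of 40 Y+I spots against 40 of 40 vehicle spots, the monocyte attractant Ccl2 on 10 of 40 against 33 of 40, and the interferon-induced chemokine Cxcl10 on 2 of 8 against 7 of 8. Il6 was so on 0 of 40 Y+I spots and on 4 of 40 vehicle spots, and all 4 were marked as outliers by the scanner software. The arrays as a whole went the same way, with fewer spots well above background in Y+I. The lowest level so called was -6.21, -5.38, -5.09 and -6.74 on Y+I arrays 1 to 4, and -7.41 to -6.88 on vehicle arrays. Counts of such spots are thus not levels: Il1a in Y+I animal 2 was the highest of the 8 at -5.64, with 3 of 10 spots. The part of these array differences in the cytokine counts was not tested.

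**Figure D4:**
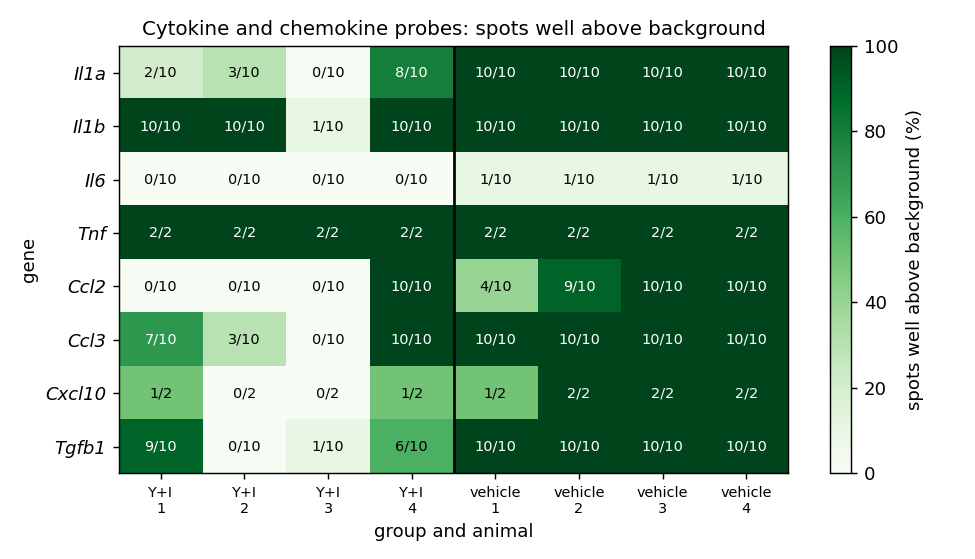
Share of spots well above background (colour, in percent, with spot counts printed) for the 8 cytokine and chemokine members (rows) in each animal, Y+I left of vehicle. Tnf is full in every animal, Il6 has at most 1 of 10 spots, and the other members have fewer such spots in Y+I, 31 against 40 for Il1b and 10 against 33 for Ccl2. The lowest level called well above background was higher on every Y+I array than on any vehicle array, so the counts are not levels.

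Il1b encodes the secreted form of interleukin 1 that microglia release on activation. It read -5.37, -4.46, -5.41 and -5.52 in Y+I animals, against -6.22, -5.84, -5.34 and -6.37 in vehicle animals. Y+I animal 2 stood above the rest, and vehicle animal 3 lay above the other Y+I animals. The difference was 0.75 ± 0.29, 1.68-fold, with a 95% interval of 0.10 to 1.40 and a limman adjusted p of 0.246. It was 0.51 under normexp and 0.50 without Y+I animals 2 and 3, whose arrays had the lowest shares of spots well above background, and the probe was well above background on 3 of 4 Y+I arrays.

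Tnf, the inflammatory cytokine that opens many of these responses, read -3.74, -3.01, -3.23 and -3.49 in Y+I animals, against -3.84, -3.47, -3.16 and -3.17 in vehicle animals. The groups covered the same range, and the difference was 0.04 ± 0.20 with a 95% interval of -0.41 to 0.50. Tgfb1, a cytokine that keeps microglia in their resting state, differed by -0.44 (limman adjusted p = 0.287), but by 0.16 under normexp and by -0.02 in the deposited value table, and it was well above background on 2 of 4 Y+I arrays. Il1a, the chemokine Ccl3 and Cxcl10 differed by -0.09, -0.02 and -0.24, each with the other sign under normexp. The second probe of Il1a, with 1 spot per array, was well above background on 2 Y+I arrays and 0 vehicle arrays, the other way round from the first, and the 2 probes did not follow each other over the 8 animals (r = 0.229). The interval for Cxcl10, -1.60 to 1.12, was the widest of all tested members. Ccl2 was well above background on 1 Y+I array and 3 vehicle arrays and Il6 on none, so neither was tested.

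Cd14 and Tlr2 were the tested members whose groups did not overlap, in opposite directions. Cd14 is the co-receptor that hands lipopolysaccharide to Tlr4. It read -4.37, -5.35, -4.85 and -4.73 in Y+I animals, against -5.62, -5.51, -5.67 and -5.36 in vehicle animals. Y+I animals 1, 3 and 4 stood clear of vehicle, and Y+I animal 2 lay just above vehicle animal 4. The difference was 0.71 ± 0.19, 1.64-fold, with a 95% interval of 0.28 to 1.15 and a limma adjusted p of 0.107. Cd14 was dim: in Y+I animal 2, 1 of its 2 spots was well above background, and the lowest level so called there was -5.38. Before centring it read 91.6, 34.6, 68.1 and 39.4 scanner units in Y+I animals, against 42.2, 45.1, 38.2 and 51.7 in vehicle animals. On that scale the groups overlapped. Il6 and RT1-Ba, well above background on no array, also read higher in Y+I (1.19 and 1.16). The part of background in the Cd14 difference was not tested. Over 20 alternatives the adjusted p of Cd14 ran between 0.0224 and 0.234. It passed as higher in Y+I under normexp (0.51, adjusted p = 0.0372), array weights (0.88, adjusted p = 0.0224), cyclic loess (0.74, adjusted p = 0.0442), without Y+I animal 2 (0.89, adjusted p = 0.0308), and without Y+I animals 2 and 3 (0.99, adjusted p = 0.0447).

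Tlr2, the receptor for bacterial lipoproteins, read -1.77, -1.35, -1.43 and -1.34 in Y+I animals, against -1.27, -1.003, -1.09 and -1.03 in vehicle animals. All 4 Y+I animals lay below all 4 vehicle animals, with Y+I animal 1 the lowest. The difference was -0.37 ± 0.12, 0.773-fold, with a limman adjusted p of 0.182, and it passed only with array weights (-0.53, adjusted p = 0.0453). Tlr4, the lipopolysaccharide receptor itself, was well above background on 2 of 4 Y+I arrays and differed by -0.04, or 0.30 under normexp.

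The 5 members of inflammatory signalling were tested, 0 passed, and 1 difference lay above 0 and 4 below, with a median of -0.15 (normexp 0.03). Stat3, which carries the signal of interleukin 6 and its relatives to the nucleus, read -0.86, -0.78, -0.87 and -0.98 in Y+I animals, against -0.41, -0.55, -0.76 and -0.78 in vehicle animals. The groups met at Y+I animal 2 and vehicle animal 4, whose values were nearly equal. The difference was -0.25 ± 0.11 (limman adjusted p = 0.326). Socs3, the inhibitor that Stat3 induces, differed by -0.15 and was well above background on 3 of 4 Y+I arrays. Nfkb1, a subunit of NF-kappaB, differed by -0.21 (normexp 0.03), and the adhesion molecule Icam1, a target of NF-kappaB, by 0.15.

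Irf1, an interferon-responsive factor, differed by -0.09 with its brighter probe, whose level was 0.21 ± 0.06 in Y+I and 0.30 ± 0.05 in vehicle. Its second probe, at chr10:39224461-39224695 and likewise across an exon junction, read -4.52, -5.99, -4.45 and -4.89 in Y+I animals, against -3.66, -4.27, -4.52 and -4.43 in vehicle animals. Y+I animal 2 lay far below the rest on that probe, which was not well above background on 1 Y+I array, and the 2 probes did not follow each other (r = 0.005).

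**Figure D5:**
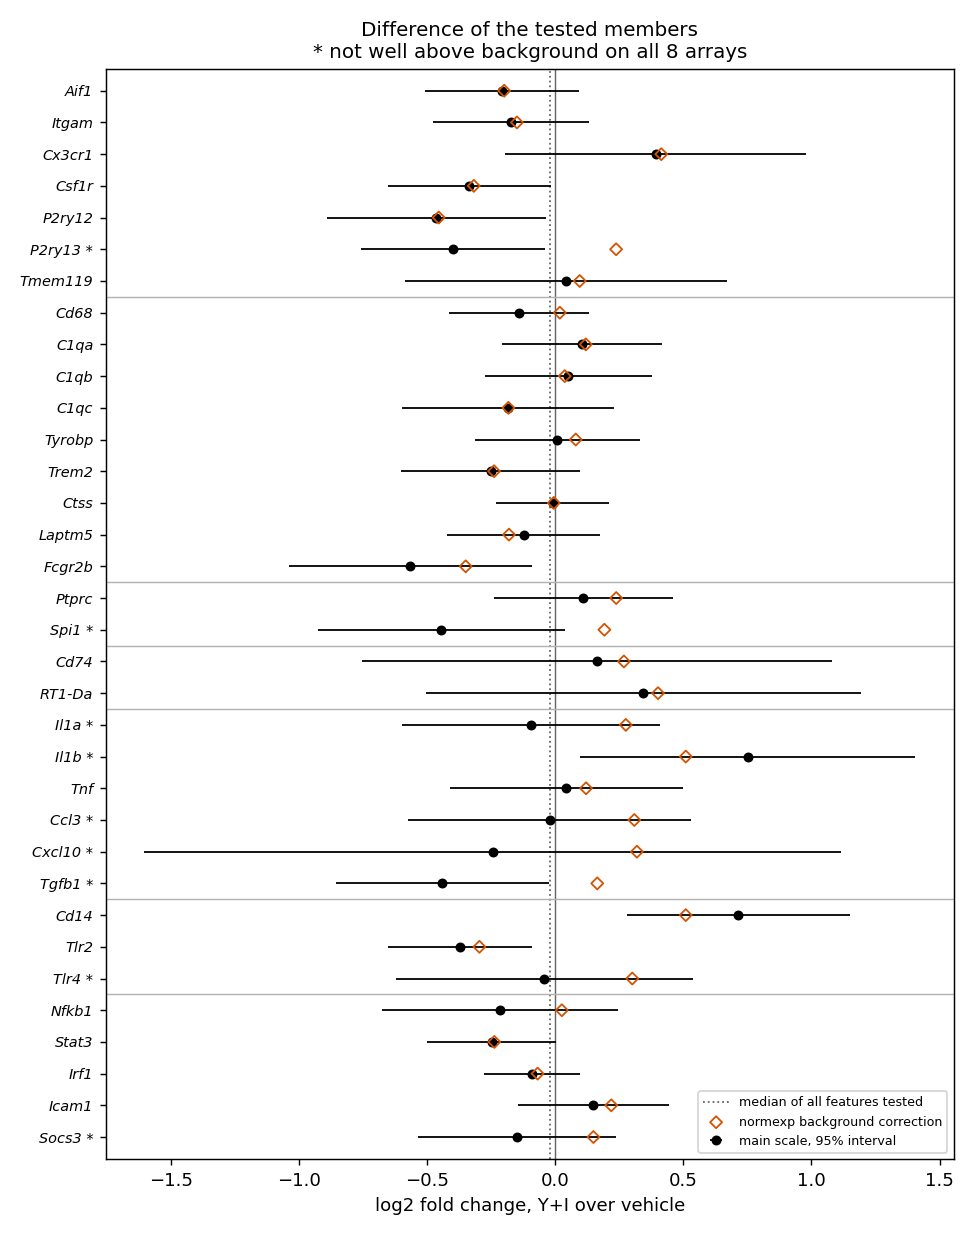
Difference of the 34 tested members, Y+I over vehicle, as log2 fold change (x axis), with 95% limma intervals (black) and the value under normexp (diamonds); the dotted line is the median of all features tested, -0.02. Intervals of 8 members exclude 0, Cd14 and Il1b above it, and most members marked with a star, which were not well above background on all 8 arrays, have diamonds to the right of their points.

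Beyond the members, 4 genes of the same pathways passed the test, beside 439 of the 18803 features in all (2.33%). Bcl3 and Nfkbia were higher in Y+I, and Bin2 and Ly86 were lower. The number of genes tested in each list is given below. Of 26 other microglia genes tested, 0 were higher, beside 0.739% of all features, and 2 were lower, beside 1.6% of all features. With no adjustment 11 of the 26 had limma p under 0.05, 1 higher and 10 lower, beside 15.6% of all features. The groups did not overlap for 9 of the 26, beside 11.7% of all features. Under normexp 0 of the 26 passed. The median of these 26 was -0.21 with 22 below 0 (normexp -0.05 with 17 below 0). The lower genes were Bin2, a membrane-binding protein of leukocytes, and Ly86, which partners a Toll-like receptor relative on myeloid cells. Bin2 read -5.21, -5.29, -4.98 and -5.26 in Y+I animals, against -4.43, -4.32, -4.48 and -4.44 in vehicle animals, a difference of -0.77 (limman adjusted p = 0.0095). Ly86 averaged -4.70 ± 0.05 in Y+I and -4.10 ± 0.10 in vehicle, a difference of -0.61 (adjusted p = 0.0136). The groups stood apart in both genes, but under normexp the differences were -0.13 and -0.14 and neither passed, and for Ly86 the mean of its probes gave -0.38 and did not pass.

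Of 22 other genes of NF-kappaB, Toll-like receptor and JAK-STAT signalling, 1 passed as higher and 0 lower, beside 0.739% and 1.6% of all features. The median of the 22 was 0.01. The gene that passed was Bcl3, an atypical inhibitor that binds NF-kappaB in the nucleus. Bcl3 read -1.73, -1.83, -2.63 and -2.44 in Y+I animals, against -3.19, -3.16, -3.57 and -3.73 in vehicle animals. Every Y+I animal lay above every vehicle animal, by a difference of 1.26 ± 0.23 (limman adjusted p = 0.0315). Of 8 feedback inhibitors, with a median of 0.25, 1 passed as higher and 0 as lower, beside the same shares of all features. It was Nfkbia, the inhibitor that NF-kappaB induces to end its own signal, with 1.34, 0.52, 0.43 and 0.90 in Y+I animals, against -0.40, -0.01, -0.08 and -0.20 in vehicle animals. The difference of Nfkbia was 0.97 ± 0.20 (adjusted p = 0.0446), and Y+I animal 1 lay highest. Over the alternatives the adjusted p ran up to 0.0996 for Bcl3 and up to 0.145 for Nfkbia, with a positive difference in each.

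No gene passed in the other lists of antigen presentation, complement, cytokines, receptors and interferon-induced genes, beside 2.33% of all features. Among 17 other antigen presentation genes (median 0.05) the smallest p values belonged to the peptide-trimming enzyme Erap1 at 0.53 and the costimulatory receptor Cd40 at -0.41. Among 11 complement genes (median 0.05) Cd55, an inhibitor of complement on cell surfaces, differed by -0.36. Among 15 receptors (median 0.09) the smallest p values belonged to Tnfrsf1b at 0.39 and Tgfbr2 at -0.29, and among 15 interferon-induced genes (median -0.02) to Irf9 at 0.58 and Rsad2 at -0.60. Of 32 other cytokines and chemokines listed, 18 were tested (median 0.00), with Il16 at 0.55 and Tgfb2 at -0.36 nearest the threshold. The other 14 were not tested, and 8 of them were well above background on no array, namely Ccl4, Ccl7, Cxcl2, Il10, Il12b, Csf2, Ifng and Tnfsf10. Of the genes named with lower means, Cd55, Tgfbr2 and Tgfb2 were each well above background on 3 of 4 Y+I arrays. Under normexp these took the other sign (0.15, 0.16 and 0.09).

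The hippocampal samples carried the defining genes of microglia. The summed signal of 10 microglia markers, in units of the 75th percentile of the array, lay between 13.1 and 16.9 in Y+I animals and between 14.2 and 15.6 in vehicle animals. The ranges overlapped, and all 10 markers were tested with 0 passing. Of the macrophage and monocyte markers, Ccr2, Cd209a and Mrc1 were well above background on no array, and the summed signal of that list was 0.0442 to 0.0659 in Y+I and 0.0434 to 0.0523 in vehicle. Some summed signals of other cell types did not overlap between the groups, and their genes differed unequally. Mast cell markers summed to 0.382 to 0.513 in Y+I and 0.192 to 0.254 in vehicle. Of the 3 tested, Hdc (2.47, limma adjusted p = 0.00568) and Tpsab1 (1.61, adjusted p = 0.00829) were higher in Y+I and Kit differed by -0.25, and Cpa3 and Ms4a2 were on no array. Tpsab1 was dim in vehicle, at a mean of -6.74. Under normexp Tpsab1 differed by 0.82 (limma adjusted p = 0.00773) and Hdc by 1.93 (adjusted p = 0.000679). Tpsb2, not tested, was well above background on 0 Y+I arrays and 3 vehicle arrays, with a lower mean in Y+I. Lymphocyte markers summed to 0.197 to 0.266 in Y+I and 0.163 to 0.192 in vehicle. Of the 4 tested, 0 passed, with Cd3e at 3.28 (adjusted p = 0.101), Cd3d at 0.01, Cd4 at -0.11 and Lck at -0.29, and Cd3g, Cd79b and Ms4a1 were on no array. Only for Cd3e did the groups not overlap. Cd3e was kept through Y+I, the group where it was higher, and was well above background on 2 of 4 vehicle arrays. Under normexp its difference was 1.27 and passed (limma adjusted p = 0.00692). Endothelial markers summed to 5.11 to 5.75 in Y+I and 6.26 to 7.45 in vehicle. Of the 7 tested, Kdr was lower (-1.04, adjusted p = 0.00932), while Cldn5 differed by 0.01 and Cdh5 by 0.02. Meningeal markers summed to 2.18 to 2.80 in Y+I and 3.37 to 3.95 in vehicle, and of the 6 tested Slc6a13 (-1.02, adjusted p = 0.0105) and Col1a1 (-1.03, adjusted p = 0.0135) were lower. Of these 6, 5 differences lay below 0 and 1 above, that of Dcn at 0.19. Lum, at -0.62, took the other sign under normexp (0.10). Neutrophil markers summed to 0.143 to 0.299 in Y+I and 0.0944 to 0.171 in vehicle, with 0 of 3 passing and Mmp8 and Mpo on no array. S100a8 differed by 2.18 (limma adjusted p = 0.158), S100a9 by 2.08 (adjusted p = 0.129) and Camp by -0.14. For S100a8 and S100a9 Y+I animal 3 lay within the vehicle range, and the other Y+I animals lay above it. Under normexp S100a8 passed (1.14, limma adjusted p = 0.0455) and S100a9 did not (1.04, adjusted p = 0.0544). Of the neuronal, astrocyte and oligodendrocyte markers, 6 each, the neuronal kinase Camk2a was higher (0.78, adjusted p = 0.0366) and no other passed. The neuronal marker Gad1 went the other way, at -0.29 with groups that did not overlap (limma adjusted p = 0.139). The part of these cells in the members' values was not tested.

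The lowest and highest levels were spread over several animals. Y+I animal 3 was the lowest of the 8 for 10 of the 34 tested members, Y+I animal 1 for 8 and Y+I animal 2 for 7, while Y+I animal 2 was also the highest for 11. Among vehicle animals, animals 2 and 4 were the highest for 6 members each, and no vehicle animal was the lowest for more than 3.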

How the data were processed

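Hippocampal RNA of 8 rats, 4 Y+I and 4 vehicle, was labelled with the dye Cy3 for 1-colour Agilent rat arrays, per the labels' protocols. The sample titles gave the groups and the numbers of the animals. Agilent Feature Extraction 10.5.1.1 read the images on a grid of build rn4, per the file headers, and the authors deposited for each spot mean and background intensity, flags of 0 or 1, and a processed intensity that was background-subtracted, detrended, and set to a surrogate near background, which makes differences of dim probes uncertain. The deposited value table holds log2 values with scale, centring and direction unstated. Set against log2 scanner values, it gave a slope of 0.997 in each column with r from 0.999 up, column medians of -3.51 to -3.35 in Y+I and -3.45 to -3.40 in vehicle, and 75th percentiles of 0.007 to 0.013. It was used as an alternative.

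Values were log2 processed signal minus the 75th percentile of each array over noncontrol spots. Spots with non-uniform or outlier flags were left out, and the spots of a probe averaged. Of 30367 probes, 21370 were kept as well above background on at least 50% of their spots on all 4 arrays of a group, with at least 3 values per group. The brightest kept probe stood for a gene, which gave 18803 features. Older symbols were replaced with those RefSeq lists for assembly GRCr8 (18004 probes by accession, 2320 by symbol, 626 by synonym; 1999 kept the file's name and 7418 had none). The test was two-sided, from limma 3.58.1 (lmFit, then eBayes; R 4.3.3), with p values adjusted by Benjamini-Hochberg over all features and no covariate. Pair correlations were tested by exact permutation of the 8 animals. The procedure was tested on simulated data. Replicates are separate animals per the labels. Same-numbered animals did not deviate together (r = 0.046, -0.111, -0.038 and 0.037), so the numbers were not taken to pair them.

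The members, the other gene lists, the tests and the alternatives were chosen with earlier results of these data known. All 38 members are accounted for; of the other pathway lists, genes that passed are named, or else the 2 with the smallest p, and of the cell type marker lists the genes that passed and those set beside them. For 1 gene picked this way no value is reported here. Alternatives covered normalization, background correction with normexp (offset 50), filters, probe summaries, the value table, variance models, array weights, a block for the animal number and omitted arrays. The number of arrays limits the precision. The plots used matplotlib 3.10.9 under Python 3.11.15.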

Additional observations from a re-analysis of the deposited data

Results flagged for a closer look

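Single animals stood far from the rest of their group in 3 of the 76 groups of 4 values checked over the members, all of them Y+I animals and all in dim cytokine genes; the gap to the nearest other animal was over Dixon's critical value for 4 samples, which chance exceeds in about 1 group in 20. Il1b was -4.46 in Y+I animal 2, and the other Y+I animals lay between -5.52 and -5.37. Ccl3 was -6.76 in Y+I animal 3, and the other Y+I animals lay between -5.73 and -5.65. Tgfb1 was -5.61 in Y+I animal 1, and the other Y+I animals lay between -6.36 and -6.24. Of these, the probe of Ccl3 was well above background on 0 of 10 spots in Y+I animal 3, that of Il1b on 10 of 10 in Y+I animal 2 and that of Tgfb1 on 9 of 10 in Y+I animal 1.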

How the results depend on the processing

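Each result was recomputed under 20 alternatives. The count of changed members, 0, became 2 with array weights (Cd14 higher, Tlr2 lower) and 1 with cyclic loess, with normexp and without Y+I animals 2 and 3 (Cd14 each time), and 1 without a filter on background (Il6, 1.19, adjusted p = 0.0395, whose probe was well above background on no array); with single animals left out it was 0 to 1. The members' median of -0.107 became 0.108 under normexp and -0.008 in the value table, and was -0.126 to -0.058 with single animals left out. The count of changed features, 439, became 726 with cyclic loess, 3887 without a filter (3361 higher, 526 lower, against 139 and 300), 164 without Y+I animals 2 and 3, and 121 to 355 with single animals left out; under normexp 400 were higher and 202 lower. With the animal number as a block, 144 features and 0 members passed; the numbers do not pair the animals. Of 671 recomputed member differences 58 took the other sign, in 19 members, none of them past the threshold in either fit. Bin2 and Ly86 lost their call under normexp and the block, and Ly86 also under 5 other settings; Bcl3 lost it under 7 settings and Nfkbia under 9, most of them with an animal left out. The cause was not tested. Among the limits are dim probes: for 9 of the 34 tested, 1 or more Y+I arrays did not read the probe well above background. A block for slide row could not be fitted, since each row held 1 group.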
